A study of Rattus norvegicus with 4 samples.

Results

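Transient receptor potential (TRP) channels of the choroid plexus were described from 4 RNAseq libraries of Sprague Dawley rats, each made from pooled tissue of animals of 9 weeks of age. The members were genes whose names start with TRPV, TRPM, TRPC, TRPA, TRPML, MCOLN or PKD in the study's lists of membrane channels for the male choroid plexus, for the epithelial cells and for the proximal tubule, of which 15 are reported, out of the 107 genes in these lists and of the 32883 gene IDs measured. The 15 comprised 5 of the TRPM (melastatin) subfamily, 3 TRPV (vanilloid), 2 TRPC (canonical), 2 TRPML (mucolipin, gene names MCOLN), 2 TRPP (polycystin, gene names PKD) and 1 TRPA (ankyrin) gene. A gene entered these lists only if it reached 0.5 TPM, a transcript level corrected for gene length and for the library total, in the same libraries, so that the detection of the members was part of how they were chosen and is given as a description.

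The libraries were whole choroid plexus of male rats (5 animals pooled), whole choroid plexus of female rats (5 animals), male choroid plexus cells captured with a fluorescence-activated cell sorter (FACS) and an antibody against the transporter NKCC1 after digestion of the tissue (10 animals), and proximal tubules of the male kidney (5 animals). By the study's methods the kidney tissue came from the male rats used for the choroid plexus, so that these 2 libraries share animals. Rats of all groups were anaesthetised with xylazine and ketamine, and no group was treated otherwise. Each group had 1 library, so no difference could be set against a spread between replicates, no test was made, and the 95% intervals below cover counting error only. The total was 28324976, 25376480, 23873318 and 25130213 expected counts in the order above. In the proximal tubule library 70.7% of these counts came from the 13 mitochondrially encoded genes, against 4.32% to 5.34% in the other 3, and only 2.76% of its gene IDs above 0 had 10 counts or fewer, against 11.0% to 16.5%. For that library TPM were rescaled without the mitochondrially encoded genes where stated, and a 0 in it is given as listed at 0.

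The tissue labels were set against marker genes. All 10 markers of choroid plexus epithelium were above 0 in the male, female and FACS libraries, and transthyretin (TTR) alone took 23.9%, 28.6% and 39.0% of all TPM. The 5 proximal tubule markers were all above 0 in the kidney library, with a summed level of 2960 TPM against 20.1 TPM in the male choroid plexus. Markers of immune cells were higher in the FACS library, and their values stand beside the results they accompanied.

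TRP channels are tetrameric cation channels that open on heat, osmotic swelling, lipids, ligands or emptying of Ca2+ stores, and most of them let Ca2+ into the cell. TRPV4 is best known for responding to cell swelling and has been placed in the epithelium of the choroid plexus, which secretes the cerebrospinal fluid. TRPM3 is opened by the steroid pregnenolone sulphate and by heat, TRPM7 carries a kinase domain and conducts Mg2+, and TRPML1, encoded by MCOLN1, releases Ca2+ from lysosomes.

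The sequences around the annotated starts of the 4 genes with the highest levels in the male choroid plexus are shown as a description. They are RefSeq sequences of GRCr8, 300 bases each (from upstream of the start to a short stretch after it), written 5′ to 3′ on the strand of the gene, and capitals mark CACGTG, an E-box that reads the same on both strands. The windows lie at chr1:229099491-229099790 (plus strand) for TRPM3, chr12:47598938-47599237 (plus) for TRPV4, chr12:6358008-6358307 (plus) for MCOLN1 and chr3:134588064-134588363 (minus) for TRPM7.
TRPM3: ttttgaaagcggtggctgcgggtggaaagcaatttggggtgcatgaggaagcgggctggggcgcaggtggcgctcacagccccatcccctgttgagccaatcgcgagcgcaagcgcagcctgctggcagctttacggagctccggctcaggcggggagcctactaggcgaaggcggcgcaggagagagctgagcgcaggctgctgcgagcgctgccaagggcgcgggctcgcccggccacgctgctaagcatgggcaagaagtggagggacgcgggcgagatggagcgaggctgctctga
TRPV4: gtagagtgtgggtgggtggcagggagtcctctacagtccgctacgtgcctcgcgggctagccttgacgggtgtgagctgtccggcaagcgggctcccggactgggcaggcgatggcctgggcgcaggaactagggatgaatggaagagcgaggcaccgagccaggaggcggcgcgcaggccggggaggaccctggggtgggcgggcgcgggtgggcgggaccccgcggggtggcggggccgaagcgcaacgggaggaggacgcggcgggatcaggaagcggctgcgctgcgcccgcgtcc
MCOLN1: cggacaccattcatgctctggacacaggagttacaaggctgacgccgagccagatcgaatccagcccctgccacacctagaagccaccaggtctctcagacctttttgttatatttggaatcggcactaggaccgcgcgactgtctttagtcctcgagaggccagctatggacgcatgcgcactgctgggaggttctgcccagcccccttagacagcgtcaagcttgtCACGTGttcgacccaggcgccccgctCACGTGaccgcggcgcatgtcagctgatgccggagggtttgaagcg
TRPM7: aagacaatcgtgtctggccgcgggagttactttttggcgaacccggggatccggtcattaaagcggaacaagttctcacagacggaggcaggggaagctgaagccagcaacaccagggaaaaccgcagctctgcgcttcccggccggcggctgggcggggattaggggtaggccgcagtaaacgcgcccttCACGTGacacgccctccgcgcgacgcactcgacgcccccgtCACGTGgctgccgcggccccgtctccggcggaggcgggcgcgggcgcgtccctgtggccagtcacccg

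RefSeq held such windows for 13 of the 15 genes (16 windows), and not for TRPC1 and TRPA1. The windows of MCOLN1 and TRPM7 each held 2 copies of CACGTG, and no other of the 16 windows held one. Over all 33469 windows of the same length, 6.42% held the motif and 0.520% held 2 copies or more. In both genes 1 copy lay within the longer TCACGTGA, found in 0.777% of all windows. The GC content was 67.3% for TRPM3, 73.7% for TRPV4, 59.3% for MCOLN1 and 68.0% for TRPM7, against a median of 51.7% over all windows. These matches describe the letters of the windows and are no evidence of binding. The gene of TRPM3 also contains a microRNA on its own strand, miR-204-5p, at chr1:229743493-229743514 of GRCr8, whose mature sequence is given with its seed (bases 2 to 8) in capitals. The microRNA itself was not measured in these libraries.
rno-miR-204-5p: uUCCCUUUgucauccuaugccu

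In the male choroid plexus the family was dominated by a few genes. The 15 genes summed to 342 TPM, and TRPM3 and TRPV4 together made up 67.1% of this. With MCOLN1 and TRPM7 added, 4 genes held 86.9%. The male library had 10 of the 15 genes at or above 0.5 TPM, the female library 9, the FACS library 13 and the proximal tubule library 6 once the mitochondrially encoded genes were removed (4 with them kept). At this cut-off the lowest gene inside was TRPC6 at 0.870 TPM in the male library, and the highest outside was TRPA1 at 0.410 TPM. The margin was narrower elsewhere. TRPC6 lay just outside in the female library, at 0.480 TPM (0.321 to 0.689). TRPV1 lay at the cut-off in the FACS library, at 0.50 TPM (0.327 to 0.733).

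**Figure D1:**
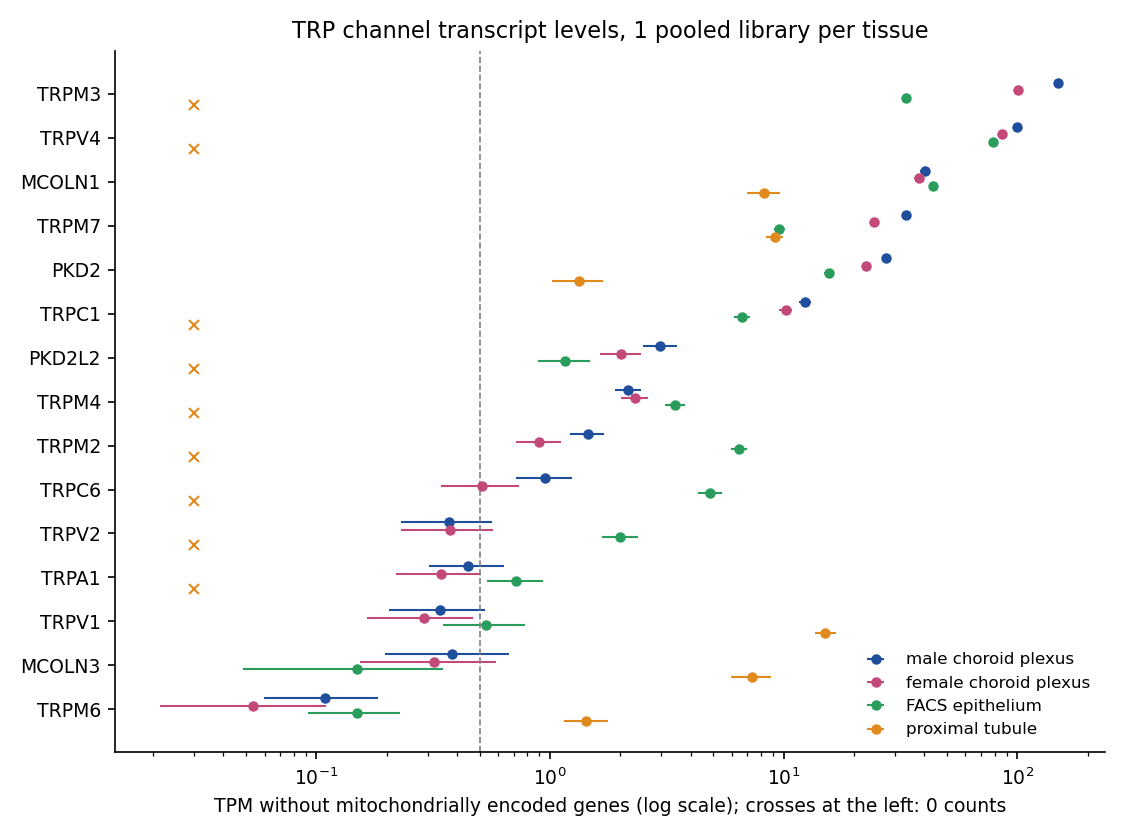
Level of each of the 15 TRP genes in the 4 libraries, as TPM after removal of mitochondrially encoded genes on a log axis. Points are 1 pooled library each, bars are 95% Poisson intervals of the count, crosses at the left mark genes listed at 0, and the dashed line is the cut-off of 0.5 TPM. TRPM3 and TRPV4 lead in whole choroid plexus and are listed at 0 in the proximal tubule, where TRPV1 is the highest.

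TRPM3 (ENSRNOG00000027770) was the highest TRP gene of whole choroid plexus. It stood at 137 TPM in the male library (21144 counts), 94.6 TPM in the female (14323 counts), 31.3 TPM in the FACS library (5115 counts) and was listed at 0 in the proximal tubule. The 3 choroid plexus libraries were thus apart from each other beyond counting error, with the male at 135 to 139 TPM, the female at 93.1 to 96.2 and the FACS at 30.5 to 32.2. Among the 107 channel genes it ranked 4 in both whole-tissue libraries and 7 in the FACS library.

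TRPV4 (ENSRNOG00000001195), the swelling-sensitive channel, stood at 92.1 TPM in the male library (6631 counts), 80.3 TPM in the female (5680 counts), 74.1 TPM in the FACS library (5644 counts) and was listed at 0 in the proximal tubule. Its level differed far less among the choroid plexus libraries than that of TRPM3. The order of the pair therefore turned: the ratio of TRPM3 to TRPV4 in TPM was 1.49 (1.45 to 1.53) in the male library, 1.18 (1.14 to 1.21) in the female and 0.422 (0.407 to 0.439) in the FACS library. This ratio is taken within a library and does not depend on how libraries are scaled to each other. It is open to a difference between libraries that goes with gene length. The effective lengths of TRPM3 and TRPV4 were 6288 and 2939 bases in the male library. Longer genes were lower in the female and FACS libraries, as given below, and the part of length in this ratio was not tested.

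MCOLN1 (ENSRNOG00000000975) was the third highest gene of whole choroid plexus, at 37.0 TPM in the male (1629 counts), 35.6 TPM in the female (1541 counts) and 41.0 TPM in the FACS library (1901 counts). The male interval of 35.2 to 38.8 TPM overlapped the female interval of 33.9 to 37.5, so that these neighbours were not apart beyond counting error. Unlike TRPM3 and TRPV4, it was also found in the proximal tubule, at 2.29 TPM (153 counts) as deposited and 8.21 TPM without mitochondrially encoded genes. TRPM7 (ENSRNOG00000057806), the channel with a kinase domain, had 30.5 TPM in the male (3970 counts), 22.8 TPM in the female (2915 counts), 8.99 TPM in the FACS library (1242 counts) and 2.55 TPM in the proximal tubule (508 counts, 9.15 TPM without mitochondrially encoded genes). The ratio of TRPM7 to MCOLN1 was 0.824 in the male, 0.639 in the female, 0.220 in the FACS and 1.11 (0.927 to 1.34) in the proximal tubule library, the last not apart from equal levels beyond counting error. The same limit of length holds here, with effective lengths of 5317 bases for TRPM7 and 1798 for MCOLN1 in the male library.

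A middle group consisted of PKD2 and TRPC1. PKD2 (ENSRNOG00000002146), which encodes polycystin 2, the channel mutated in polycystic kidney disease, stood at 25.1, 21.1 and 14.7 TPM in the male, female and FACS libraries (2814, 2320 and 1746 counts) and at 0.370 TPM in the proximal tubule (64 counts, 1.33 TPM without mitochondrially encoded genes). TRPC1 (ENSRNOG00000054902), a canonical channel that often joins other TRP subunits, stood at 11.3, 9.56 and 6.22 TPM (1054, 877 and 609 counts) and was listed at 0 in the proximal tubule. Both were highest in the male library and lowest in the kidney, but the median of all genes followed the same order. As a log2 ratio of TPM + 1 to the male library, that median was -0.16 in the female and -0.58 in the FACS library. In the proximal tubule it was -2.27, without mitochondrially encoded genes. Relative to these medians PKD2 stood at -0.09, -0.15 and -1.34, and TRPC1 at -0.06, -0.19 and -1.46.

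The other 9 genes were at or below 2.71 TPM in whole choroid plexus. PKD2L2, a little studied polycystin relative, had 2.71, 1.89 and 1.09 TPM in the male, female and FACS libraries. TRPM4, a Ca2+-activated channel for monovalent cations, had 1.98, 2.16 and 3.23 TPM. TRPM2, a channel opened by ADP-ribose and known from immune cells, had 1.33, 0.840 and 6.06 TPM. TRPC6, a channel activated by diacylglycerol, had 0.870, 0.480 and 4.54 TPM. TRPV2, which macrophages are known to express, had 0.340, 0.350 and 1.88 TPM, and the irritant receptor TRPA1 had 0.410, 0.320 and 0.670 TPM. The lowest were the capsaicin receptor TRPV1 (0.310, 0.270 and 0.50 TPM), the second mucolipin MCOLN3 (0.350, 0.300 and 0.140 TPM) and the Mg2+ channel TRPM6 (0.10, 0.0500 and 0.140 TPM), with at most 26 counts in any choroid plexus library. At this depth no difference from the male library was detectable for these last 3. Between the FACS and female libraries the ratio of counts, each divided by the total of its library, was 3.19 (1.31 to 8.88) for TRPM6, on 21 and 7 counts, whereas the intervals for TRPV1 and MCOLN3 included 1. PKD2L2, TRPV2 and MCOLN3 overlap another protein-coding gene in RefSeq (FAM13B, LOC120095326 and DNAI3), and the strandedness of the counting was not given in the sources used here, so that their counts are uncertain.

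By subfamily, the TRPM genes held 171 of the 342 TPM in the male library, 44.5% of the sum in the female and 25.6% in the FACS library. The TRPV genes, nearly all TRPV4, held 27.2%, 29.9% and 39.3%, and the TRPML genes 10.9%, 13.3% and 21.1%. The 15 genes made up 11.2%, 9.98% and 9.43% of the summed TPM of the 107 channel genes in these libraries and 8.74% in the proximal tubule, so that the weight of the family among the channels changed less than its makeup. Shares within a library carry no scaling between libraries, but they too are open to differences that go with gene length. TRPM3 and TRPM7, which make up most of the TRPM sum in whole tissue, are long genes.

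**Figure D2:**
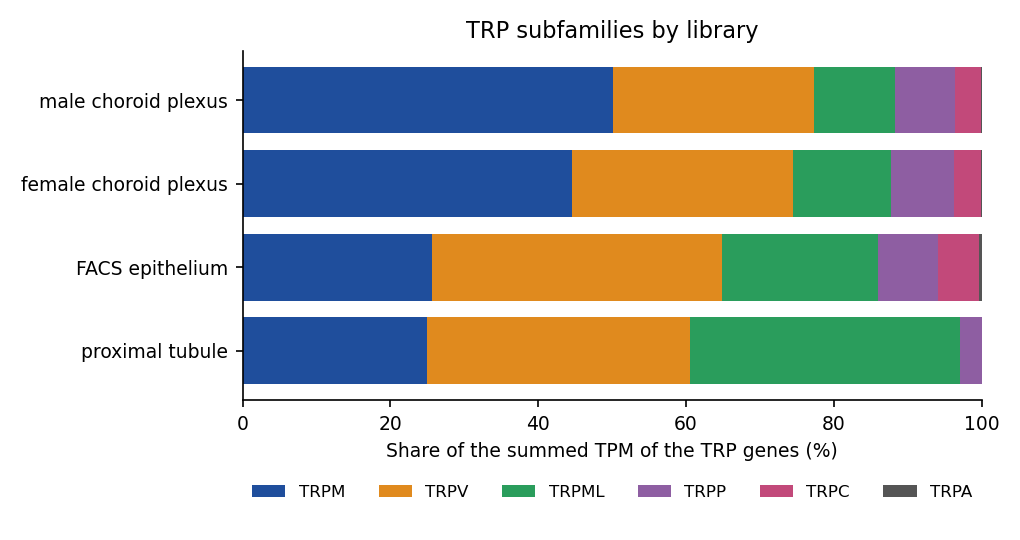
Share of each TRP subfamily in the summed TPM of the 15 genes, in percent, 1 bar per library. The TRPM share is 44.5% in the female and 25.6% in the FACS library, below its share in the male library, and the TRPC and TRPA genes have no share in the proximal tubule.

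The comparison of the FACS library with the male whole tissue sets cells sorted for an epithelial transporter beside another pool of the same tissue. By the study's methods the sorted cells came from 10 male rats and the whole tissue from 5. Most immune markers and 1 of 4 fibroblast and mural markers, DCN, were also higher in this library, as given below with their values. The library is therefore not read here as pure epithelium. Relative to the median of all genes, 4 TRP genes were at least 2-fold higher in the FACS library (TRPM2, TRPC6, TRPV2 and TRPM4) and 2 were at least 2-fold lower (TRPM3 and TRPM7). The difference was taken as the log2 ratio of TPM + 1, less the median over the 14024 genes at or above 0.5 TPM in either library, a median that was itself -0.58. The background over these genes was 10.9% higher and 6.03% lower. Of the 13 TRP genes that passed the filter, 8 lay above and 5 below the median of all genes, and their own median was 0.73, against 0 over all genes by construction and 0.49 over the 95 channel genes that passed. MCOLN3 and TRPM6 did not pass the filter. TRPC6 and TRPM2 passed through either library, whereas TRPV2, TRPA1 and TRPV1 passed only through the FACS library. The direction of TRPV2, TRPA1 and TRPV1 was therefore fixed by the selection and is no result. All of them count among the 8 above the median and enter the median of 0.73, and TRPV2 is among the 4 higher. Before centring, 3 were higher and 2 lower, against 4.61% and 25.5% of all genes.

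TRPM3 was 4.38-fold lower in the FACS library in TPM, and -1.52 relative to the median on the log2 scale. Its scaled count, the expected count divided by the total of its library, was 3.48-fold lower (3.38 to 3.59). TRPM7 was 3.39-fold lower in TPM, -1.07 relative to the median, and 2.69-fold lower in scaled counts (2.53 to 2.87). Both are long genes, with effective lengths of 6288 and 5317 bases in the male library. Across all genes the difference declined with length, from a median of 0.14 below 1000 bases to -0.20 between 5000 and 7000 bases and -0.25 above that, with a Spearman's rho of -0.14 across 14024 genes, which are not independent replicates. Relative to the 500 genes nearest in length, TRPM3 stood at -1.27 and TRPM7 at -0.93, so that TRPM7 was then no longer past 2-fold. The part that length or RNA quality had in these differences was not tested further.

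**Figure D3:**
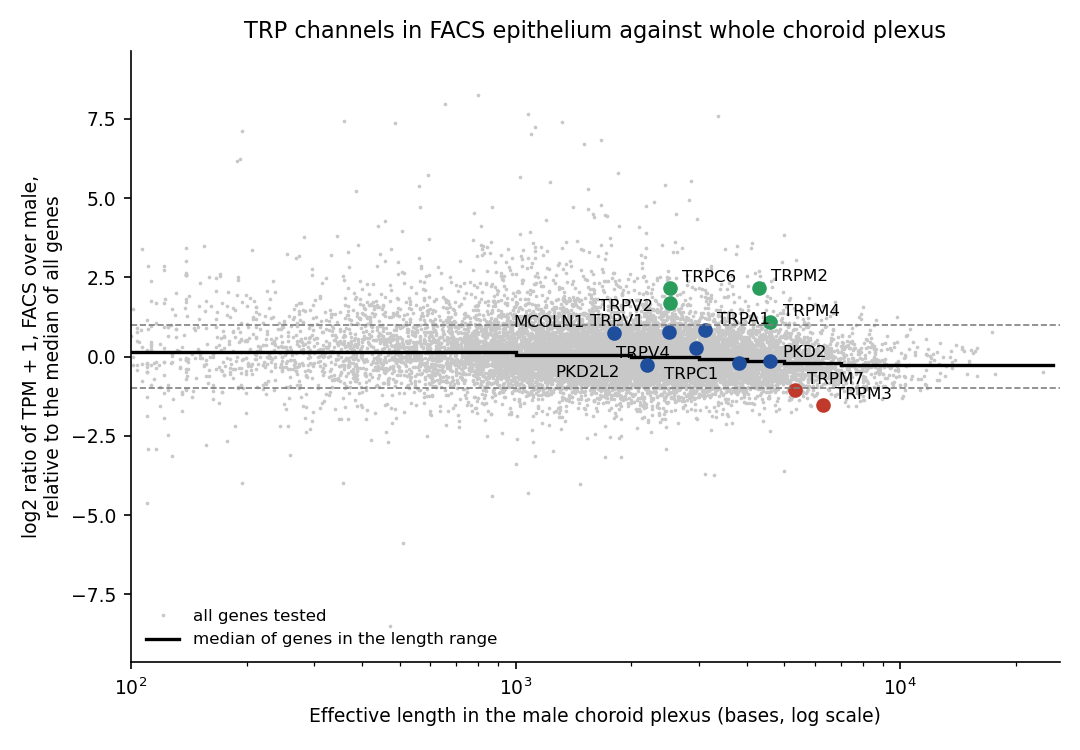
Log2 ratio of TPM + 1, FACS over male library, relative to the median of all genes, against effective length in bases on a log axis. Grey points are all genes tested from 100 bases upwards, black lines the median within a range of lengths, dashed lines 2-fold, and coloured points TRP genes (green higher, red lower, blue neither). TRPM3 and TRPM7, the longest TRP genes tested, are the 2 below the lower line.

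TRPV4 and MCOLN1 were not lower in the FACS library relative to the median. TRPV4 stood at 0.27 relative to the median, with a ratio of scaled counts of 1.01 (0.974 to 1.05). MCOLN1 stood at 0.73, with a ratio of 1.38 (1.3 to 1.48). PKD2, TRPC1 and PKD2L2 lay slightly below the median, at -0.15, -0.19 and -0.25. TRPV1 and TRPA1 lay above it at 0.78 and 0.83, on 26 and 54 counts in the FACS library, a direction fixed by the filter.

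The genes that were higher in the FACS library were all low in whole tissue. TRPM2 went from 140 counts in the male to 674 in the FACS library, 4.56-fold in TPM and 2.18 relative to the median. TRPC6 went from 54 to 297 counts, 5.22-fold and 2.15, and TRPV2 from 21 to 123 counts, 5.53-fold and 1.69. TRPV2 passed the filter only through the FACS library, so that its direction was fixed by the selection and is no result. Its counts are also uncertain because of the overlapping gene. The ratios of scaled counts were 5.71 (4.75 to 6.90), 6.53 (4.87 to 8.89) and 6.95 (4.35 to 11.6). TRPM4 was at 1.09 and only just past 2-fold, with a ratio of scaled counts of 2.05 (1.73 to 2.43), and it stood at 0.51 without centring.

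Most immune cell markers were also higher in the FACS library. Of 13 such markers, 11 were at least 2-fold higher relative to the median, all 13 lay above it, and their median was 1.82. Their summed level was 866 TPM in the male, 565 TPM in the female and 4664 TPM in the FACS library. CD74, the invariant chain of antigen presentation, went from 345 to 2556 TPM, the lysozyme gene LYZ2 from 468 to 1939 TPM, and CSF1R, the receptor that macrophages depend on, from 16.5 to 79.1 TPM. Endothelial markers (7 genes, 1 higher, median 0.47) summed to 77.3 TPM in the male library and 84.6 TPM in the sorted cells. Fibroblast and mural markers (4 genes, 1 higher, median 0.29) summed to 213 and 314 TPM. Among these 4, DCN went from 102 to 239 TPM and PDGFRB from 20.4 to 23.1 TPM. PDGFRA went from 83.4 down to 49.2 TPM and DDR2 from 7.48 down to 2.47 TPM. The 10 epithelial markers had a median of -0.04, with TTR higher and the bicarbonate transporter gene SLC4A10 lower. None of these markers was at 0 in either library. The part of other cell types in the levels of TRPM2, TRPC6, TRPV2 and TRPM4 was not tested, and in pooled tissue fewer cells of a type and less RNA per cell cannot be told apart.

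**Figure D4:**
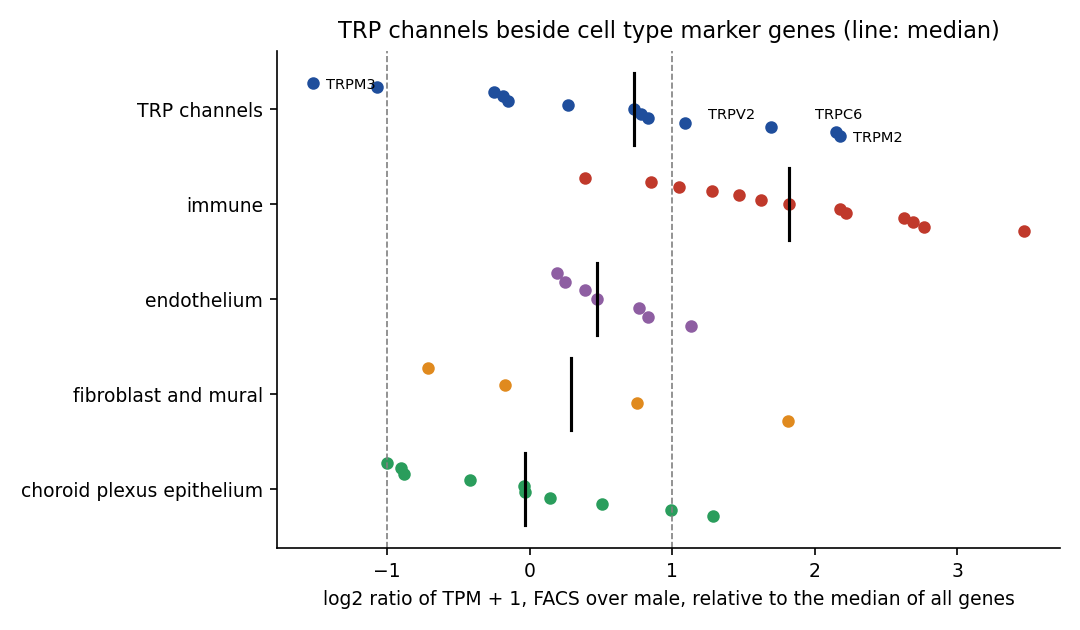
Log2 ratio of TPM + 1, FACS over male library, relative to the median of all genes, for the 13 TRP genes tested and for 4 lists of marker genes. Points are genes, vertical black lines the median of each list and dashed lines 2-fold. TRPM2, TRPC6 and TRPV2 lie in the range of the immune markers, whose median is 1.82. The direction of TRPV2 was fixed by the filter. TRPM3 lies at -1.52, below all marker genes shown.

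Of 25 other genes of Ca2+ and Mg2+ handling, 2 were higher and 1 was lower in the FACS library, and their median was 0.01. Over all genes tested the shares were the 10.9% and 6.03% given above, and nothing is read from the small counts of this list. Those higher were the mechanosensitive channel gene PIEZO1, at 2.68 TPM in the male library and 5.20 TPM after sorting, and KCNN4, a Ca2+-activated K+ channel gene, at 2.85 and 5.93 TPM. The lower one was EDNRB, an endothelin receptor gene, at 150 and 36.9 TPM. The 5 genes of store-operated Ca2+ entry all lay above the median of all genes, with a median of 0.62, and their summed TPM was 290, 263 and 258 in the male, female and FACS libraries. The 7 genes of Ca2+ stores and export were all lower in TPM in the FACS library, with sums of 778 and 379 TPM in the male and FACS libraries. The median of all genes was itself -0.58 before centring, so that nothing is read from this count. Relative to that median, 1 of the 7 lay above it, their median was -0.26, and 0 were past 2-fold. Among them the plasma membrane Ca2+ pump gene ATP2B3 had 396 and 163 TPM and ITPR1, a gene for the Ca2+ release channel of the endoplasmic reticulum, 92.6 and 40.6 TPM, and neither was past 2-fold relative to the median. Of these, STIM1, the Ca2+ sensor of the endoplasmic reticulum, had 82.0, 73.0 and 69.1 TPM, and the channel gene ORAI1 had 61.9, 63.2 and 67.8 TPM. Thus ORAI1 lay below TRPV4 in each of the 3 libraries. SLC12A2, which encodes NKCC1, the protein used for sorting, had 268, 237 and 150 TPM, and STK39, encoding the kinase SPAK that phosphorylates it, had 320, 282 and 122 TPM. Neither was past 2-fold relative to the median. Of the Mg2+ transport genes, SLC41A1 had 43.4, 31.4 and 23.2 TPM, CNNM2 59.3, 43.1 and 31.6 TPM, and MAGT1 42.9, 38.3 and 28.4 TPM, each above TRPM7 in the FACS library.

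The comparison of female with male choroid plexus sets 1 pooled library of each sex side by side. A difference between the sexes cannot be told apart from one between the pools or libraries. No TRP gene was past 2-fold: 0 of the 10 that passed the filter were higher and 0 lower. The background over 13869 genes was 0.620% higher and 0.757% lower, so that nothing is read from 0 among 10 genes. The median of the 10 was -0.13 relative to all genes, whose own median was -0.16, and 2 lay above and 8 below. TRPM3 had the lowest value, at -0.38, with a ratio of scaled counts of 0.756 (0.740 to 0.772). TRPM7 stood at -0.25 with a ratio of 0.820 (0.781 to 0.860). TRPV4 stood at -0.04 with a ratio of 0.956 (0.923 to 0.991), and MCOLN1 at 0.10 with a ratio of 1.06 (0.984 to 1.13). The first 3 of these ratios were apart from 1 by more than counting error, whereas that of MCOLN1 was not.

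**Figure D5:**
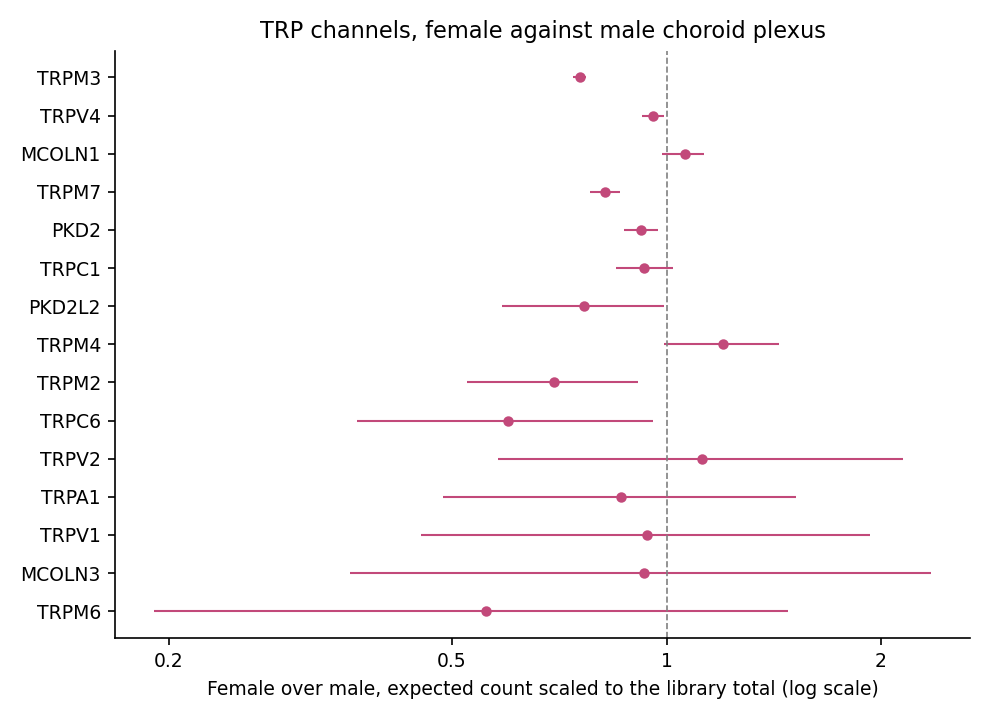
Ratio of scaled counts, female over male choroid plexus, for the 15 TRP genes on a log axis. Points are the ratio of 1 pooled library to the other, bars are exact 95% intervals for counting error, and the dashed line is equality. TRPM3 lies at 0.756 with a narrow interval, MCOLN1 at 1.06 has an interval that includes 1, and the intervals of the genes with few counts are wide.

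Among the low genes, TRPM2 had a ratio of 0.694 (0.525 to 0.913) and TRPC6 of 0.599 (0.368 to 0.958), both lower in the female library beyond counting error. TRPM4 had a ratio of 1.20 (0.993 to 1.44), which included 1. The summed immune markers were also lower in the female library, 565 against 866 TPM, and longer genes were lower, with a Spearman's rho of -0.31 between the difference and length across genes and a median of -0.12 between 5000 and 7000 bases. Relative to the 500 genes nearest in length, TRPM3 stood at -0.26, TRPM7 at -0.14, TRPM2 at -0.10 and TRPC6 at -0.16. Relative to the median of all genes these values were -0.38, -0.25, -0.18 and -0.18. The median of the TRP genes tested was -0.05 relative to genes of similar length, against -0.13 relative to all genes. The part of immune cells in the ratios of TRPM3, TRPM7, TRPM2 and TRPC6 was not tested, and that of length was not tested further. None of the 25 genes of Ca2+ and Mg2+ handling was past 2-fold, with a median of -0.10.

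The comparison with the proximal tubule sets the choroid plexus beside an absorptive epithelium of the kidney. The TRP genes with the highest levels differed between the libraries. In the proximal tubule 9 of the 15 were listed at 0, among them TRPM3 and TRPV4, and the 6 found were TRPV1, TRPM7, MCOLN1, MCOLN3, TRPM6 and PKD2, with 64 to 508 counts each. TRPV1 (ENSRNOG00000019486) was the highest, at 4.22 TPM (375 counts) as deposited and 15.1 TPM (13.6 to 16.7) without mitochondrially encoded genes, where the male choroid plexus had 0.338 TPM. The effective length given for TRPV1 varied, at 2505, 2461, 1977 and 2356 bases in the male, female, FACS and proximal tubule libraries. MCOLN3 (ENSRNOG00000015024) had 7.32 TPM against 0.382 TPM, and TRPM6 (ENSRNOG00000013053), known for Mg2+ uptake in the kidney's distal tubule and the gut, had 1.43 against 0.109 TPM. The ratios of scaled counts outside the mitochondrially encoded genes were 72.0 (45.4 to 121), 31.9 (17.5 to 63.7) and 22.9 (13.0 to 43.6). TRPV1, MCOLN3 and TRPM6 were below the cut-off in the male library and passed the filter only through the proximal tubule. The direction of these ratios was therefore fixed by the selection and is no result.

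Of the genes found in both tissues, MCOLN1 had 8.21 TPM in the proximal tubule against 40.3 TPM in the male choroid plexus on this scale, TRPM7 had 9.15 against 33.3 TPM and PKD2 had 1.33 against 27.4 TPM. The mucolipins were close to each other in the proximal tubule, with a ratio of MCOLN3 to MCOLN1 of 0.893 (0.690 to 1.15), and far apart in the choroid plexus, at 0.00955 in the male, 0.00842 in the female and 0.00342 in the FACS library. TRPV1 ranked 4 among the 107 channel genes in the proximal tubule and 94 in the male choroid plexus. The contrasts of MCOLN3 and TRPV1 between the tissues carry the same limit of selection.

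How many of these counted as changed relative to all genes rested on the scaling. Relative to the median of 14227 genes, which was -2.27 in a library with 6274 gene IDs above 0 against 16720 in the male choroid plexus, 4 of the 13 TRP genes tested were higher and 4 lower, where the background was 33.7% higher and 34.7% lower. The 4 higher ones included TRPC6, which was listed at 0 in the proximal tubule. Without centring, 3 were higher (TRPV1, MCOLN3 and TRPM6) and 9 lower, where 12.1% and 71.0% of all genes were. These 3 were below the cut-off in the male library and passed the filter only through the proximal tubule, so that their direction was fixed by the selection and is no result. Over the 5540 genes at or above 0.5 TPM in both libraries, MCOLN1 stood at -1.17, TRPM7 at -0.76 and PKD2 at -2.61, where 36.0% of these genes were at least 2-fold higher and 33.5% lower. Levels, and not these counts, are therefore the firmer description for the proximal tubule, with the same limit of selection for TRPV1, MCOLN3 and TRPM6. The male library is shared by all 3 comparisons, so that they are not independent of each other.

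Of the 10 TRP genes that reached the cut-off in the male library, 7 were listed at 0 in the proximal tubule, and so were 19 of the 25 other Ca2+ and Mg2+ genes. Over all 13670 genes at this level in the male library the share listed at 0 was 58.6%, so that zeros are common there for any gene. Among the Ca2+ and Mg2+ genes, 4 of the 5 store-operated entry genes, both PIEZO genes and all 4 genes of Ca2+-activated channels were listed at 0. MAGT1 was the one gene of the 25 with a higher level there, at 72.2 TPM against 46.8 TPM without mitochondrially encoded genes.

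The genes whose levels over the 4 libraries were most like those of the leading channels were taken from the 2374 genes named in the study's lists that reached 0.5 TPM in the male library, by the distance between log2(TPM + 1) profiles centred on their mean over 4 libraries. For TRPV4 these were TMEM184B (distance 0.11), SUMF1 (0.12) and STIM1 (0.12). For TRPM3 they were WDR82 (0.11), EDNRB (0.18) and STRIP2 (0.20), with EDNRB at 150, 95.9, 36.9 and 0 TPM in the male, female, FACS and proximal tubule libraries. For TRPM7 they were HIF1A (0.16), PAFAH1B2 (0.20) and EIF4G2 (0.23), and for MCOLN1 EPHA1 (0.04), PIGK (0.07) and SLC39A5 (0.07). EPHA1 and SLC39A5 had only 3.20 and 2.99 TPM in the male library and were listed at 0 in the proximal tubule, where MCOLN1 was found, so that their small distance goes with low levels on the log2(TPM + 1) scale. PIGK had 144 TPM in the male library and 9.17 TPM as deposited in the proximal tubule. With 4 points per profile, such likeness is shared by many genes and is given as a description.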

How the data were processed

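RNA of 4 pooled samples was sequenced as paired-end reads. According to the submitters' processing notes, reads were aligned with STAR 2.7.2a to Rnor_6.0 and quantified with RSEM 1.3.3. Per gene ID, the authors deposited RSEM's expected counts, which are estimates and can be fractional. The deposited TPM are scaled to the same total in every library. Effective lengths came from the same files, and the FPKM values were left out. Trimming and strandedness were not given for all libraries in the sources used here.

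Gene names were taken from the study's gene lists. The members, marker lists and pathway lists were chosen with earlier results of these data known. 1 gene that the rule on names selects is not reported here and entered no count or sum of the members. Named genes were all other members, the 25 genes of the Ca2+ and Mg2+ lists, and the 3 nearest genes of 4 members. With 1 library per group no test was made. Differences were log2 ratios of TPM + 1 over genes at or above 0.5 TPM in either library, relative to their median, and past 2-fold meant at least 1 or at most -1. For the proximal tubule comparison, mitochondrially encoded genes were removed and TPM rescaled. Expected counts were rounded for exact 95% Poisson intervals and for exact conditional binomial (Clopper-Pearson) intervals of ratios of counts scaled to the library total. Reads are not independent molecules, so these cover counting error only. A count of 3 corresponded to 0.0398 to 0.0623 TPM for a gene of 2000 bases. Scripts ran in Python 3.11.15 with numpy 2.4.6, pandas 2.3.3, scipy 1.17.1 and matplotlib 3.10.9, and were tested on simulated data. Promoter and microRNA sequences were RefSeq sequences of GRCr8, a build other than that of the counts, and no coordinates were converted.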

Additional observations from a re-analysis of the deposited data

How the results depend on the processing

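No paired analysis was possible because each group had 1 library and the labels gave no replicate numbers. Leaving out a replicate was not possible for the same reason. Of the alternative values of the main results, 47 stayed within the limits set and 14 moved. Of those of single genes, 229 stayed, 27 moved and 1 reversed. The summed TPM of the 15 genes moved with the scale. It became 373, 289, 207 and 42.6 TPM in the male, female, FACS and proximal tubule libraries without mitochondrially encoded genes, and 530, 450, 401 and 40.9 TPM without the 10 highest genes. At a minimum of 10 expected counts in place of 0.5 TPM, 15 genes were detected in the male, 14 in the female and 14 in the FACS library, so that the male library no longer had fewer than the FACS library. In the FACS comparison, the number lower became 1 relative to genes of similar length and 1 with the female library as reference, where TRPM7 stood at -0.93 and -0.79. The cause was not tested. TRPM4 went below 2-fold without centring (0.51), without a filter on low values (0.91) and with the female reference (0.88). In the proximal tubule comparison without centring, 3 were higher and 9 lower, and TRPC6 (-0.96) reversed. Over genes at or above 0.5 TPM in both libraries, a setting chosen after seeing the data, 0 were higher and 2 lower, where 36.0% and 33.5% of all genes were. Only MCOLN1, TRPM7 and PKD2 entered that setting. The low counts of TRPV1, TRPV2, TRPA1, MCOLN3 and TRPM6 in the choroid plexus limit what could be seen.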
